A study of Homo sapiens with 8 samples.

Results

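The polyamine metabolism genes described here are *SAT1*, *SAT2*, *SMOX*, *PAOX*, *ODC1*, *AMD1*, *SRM*, *SMS*, *OAZ1* and *AZIN1*, 10 of the 16955 named genes tested. They were taken by symbol, with earlier results of these data known, and each was read at its brightest probe, that is, highest in mean signal across the 8 arrays. RNA was measured on 8 one-color arrays, 2 for each of 4 groups: OVSAHO cells with simvastatin, OVSAHO cells with L-778123, KURAMOCHI cells with simvastatin and KURAMOCHI cells with L-778123. Both lines are established human lines of serous ovarian carcinoma. Simvastatin inhibits the enzyme that makes mevalonate, whereas L-778123 inhibits the prenyltransferases for farnesyl and geranylgeranyl groups, which attach lipids made from mevalonate to proteins. The comparison therefore asked which genes differ between the statin and an inhibitor of prenylation. How far either drug inhibited its target in these cultures is not given. None of the 8 arrays was of cells without drug, and a difference does not show which drug moved a gene. The concentrations and times of these cultures are not given in the sources used here. Nothing states that arrays of a group came from separate cultures, so the p-values measure only the spread between these arrays, which may be technical.

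Polyamines are small, positively charged molecules that bind nucleic acids and are needed for growth. Ornithine decarboxylase (*ODC1*) makes putrescine, the enzyme of *AMD1* makes the donor of aminopropyl groups from S-adenosylmethionine, and the synthases of *SRM* and *SMS* use that donor to make spermidine and then spermine. In the reverse direction, the spermidine/spermine N1-acetyltransferase of *SAT1*, a diamine N-acetyltransferase, acetylates polyamines. Acetylated forms leave the cell or are oxidized by the enzyme of *PAOX*, and that of *SMOX* oxidizes spermine directly. *SAT2* encodes a relative of *SAT1* with other preferred substrates. Antizyme (*OAZ1*) binds ornithine decarboxylase and sends it for degradation, and the antizyme inhibitor (*AZIN1*) binds antizyme in its place. Ornithine decarboxylase, *AMD1* and antizyme are also known to be controlled at translation and protein stability, which an array of RNA does not measure.

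All 10 genes were well above background on all 8 arrays. The arrays had a 75th percentile of 324 to 437 in intensity, between 51.8% and 57.5% of probes were well above background, no spot was saturated, and the 2 arrays of a group correlated at 0.995 to 0.996 across probes. All arrays lay on 1 slide, with each line and each drug in its own positions, so position and group cannot be told apart. All 8 markers of serous carcinoma and epithelium were well above background on every array at their brightest probes. With simvastatin in OVSAHO cells 5 of them were higher and 1, *KRT8*, was lower, against 26.4% and 27.5% of all genes tested. In KURAMOCHI cells 1 was higher and 6 were lower, against 17.1% and 18.4% of all genes. The probes of *KRT8* disagreed in OVSAHO cells, at -0.34, 0.77 and -0.40, each past the threshold. *MUC16*, among the 5 that were higher, gave 2.17 at its brightest probe and 0.64 (limma adjusted p = 0.48) at its second. The 10 markers of fibroblasts, leukocytes and endothelium were also read at their brightest probes. *COL1A2*, *DCN*, *LUM* and *PECAM1* were not well above background on any array, 4 were well above it on all arrays and 2 on some. Among the 4, *PTPRC* also had dimmer probes that were well above background on no array. Only 1 of 4 fibroblast, 2 of 3 leukocyte and 2 of 3 endothelial markers were bright enough to be tested. Of those, *VWF*, an endothelial marker, was the 1 that passed in OVSAHO cells, at a log2 fold change of -3.30 at its brightest probe. Its second probe gave -0.05 (limma adjusted p = 0.70) and was also well above background on all arrays. In KURAMOCHI cells none of the markers tested among these 10 passed. The summed linear signal of the 3 endothelial markers at their brightest probes, relative to the 75th percentile, was 0.213 to 0.252 on the OVSAHO arrays with simvastatin and 0.839 to 0.882 on those with L-778123, and its part in the results below was not tested.

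Each level below is a log2 signal minus that of the array's 75th percentile, and each difference is a log2 fold change with its standard error from limma, fitted on all 33753 probes that passed the filter. A gene passed at a Benjamini-Hochberg adjusted p under 0.05. Levels of different genes come from different probes and are not set against each other.

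With simvastatin, the acetylation and oxidation genes were higher than with L-778123 and the synthesis genes were lower in OVSAHO cells, whereas in KURAMOCHI cells *SAT1*, *SAT2* and *SMOX* were higher and no synthesis gene passed. In OVSAHO cells, 4 of 10 genes were higher and 5 were lower, against 26.4% and 27.5% of all genes tested, and *OAZ1* did not pass. In KURAMOCHI cells, 3 of 10 were higher and 1 was lower, against 17.1% and 18.4% of all genes, so that the share in both directions together was close to the background. Only *SAT1* also had a fold change of at least 2, in both lines, a size reached together with the adjusted p by 11.6% of all genes in OVSAHO cells and 5.38% in KURAMOCHI cells. The median log2 fold change of the 4 acetylation and oxidation genes was 0.76 in OVSAHO and 0.44 in KURAMOCHI cells, that of the 4 synthesis genes -0.38 and -0.17, and that of all genes 0.014 and 0.012.

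**Figure D1:**
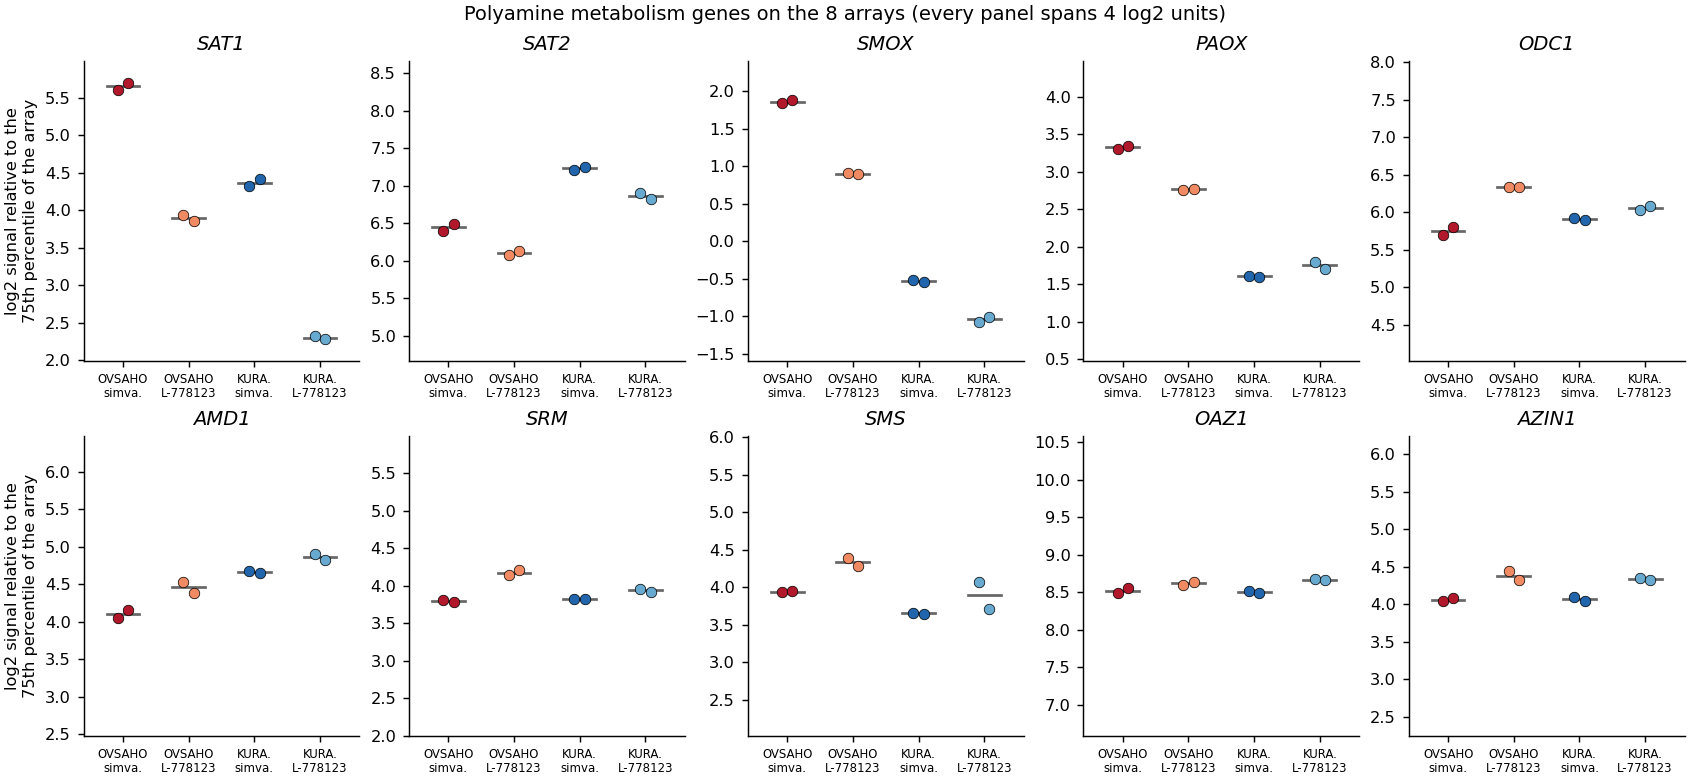
Log2 signal of the 10 polyamine metabolism genes relative to the 75th percentile of the array, for the 4 groups (KURA., KURAMOCHI; simva., simvastatin); each point is 1 of 8 arrays, bars are group means and every panel spans 4 log2 units. The arrays of a group lie close together apart from *SMS* with L-778123 in KURAMOCHI cells (4.06 and 3.72), and *SAT1* separates the groups over the widest range.

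*SAT1* showed the largest drug contrast of the 10 genes in both lines. In OVSAHO cells, its level was 5.60 and 5.69 with simvastatin and 3.93 and 3.86 with L-778123. In KURAMOCHI cells, its level was 4.31 and 4.41 with simvastatin and 2.31 and 2.28 with L-778123. The groups did not overlap, and every array with simvastatin was above both arrays with L-778123 of either line. The log2 fold change was 1.75 ± 0.07 (SE, limma adjusted p = 4e-05), a 3.37-fold higher signal, in OVSAHO cells and 2.07 ± 0.07 (SE, limma adjusted p = 0.00011), 4.19-fold, in KURAMOCHI cells. Among the 16955 genes, 306 had a larger fold change than *SAT1* in OVSAHO cells and 56 in KURAMOCHI cells. A second probe of *SAT1* gave 1.72 ± 0.08 and 2.02 ± 0.08 (SE). The contrast in OVSAHO minus that in KURAMOCHI cells was -0.31 (95% interval -0.55 to -0.08) and did not pass (limma adjusted p = 0.066). Its adjusted p ranged from 0.022 to 0.21 over 18 other ways of processing and was under 0.05 in 4 of them.

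*SAT2* was higher with simvastatin in both lines, by a smaller amount. Its level was 6.40 and 6.49 with simvastatin and 6.07 and 6.13 with L-778123 in OVSAHO cells. In KURAMOCHI cells, its level was 7.20 and 7.25 with simvastatin and 6.90 and 6.83 with L-778123. All 4 groups were separate, and the drug groups of a line lay closer to each other than the lines did. These gave log2 fold changes of 0.34 ± 0.06 (SE, limma adjusted p = 0.0073) in OVSAHO and 0.36 ± 0.06 (SE, limma adjusted p = 0.010) in KURAMOCHI cells, and their difference was -0.02 (95% interval -0.24 to 0.21). In KURAMOCHI cells the adjusted p was 0.055 both without the simvastatin array of replicate 2 and without the L-778123 array of replicate 2.

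*SMOX*, which encodes spermine oxidase, was higher with simvastatin in both lines and more so in OVSAHO cells. Its level was 1.85 and 1.88 with simvastatin and 0.91 and 0.89 with L-778123 in OVSAHO cells. In KURAMOCHI cells, its level was -0.51 and -0.55 with simvastatin and -1.07 and -1.01 with L-778123. No groups overlapped, and both drug groups of KURAMOCHI cells lay below both of OVSAHO cells. The log2 fold change was 0.96 ± 0.06 (SE, limma adjusted p = 0.00011), 1.95-fold, in OVSAHO and 0.51 ± 0.06 (SE, limma adjusted p = 0.0021), 1.42-fold, in KURAMOCHI cells. The difference between the lines, 0.45 ± 0.08 (SE), passed in limma (adjusted p = 0.013), as did 27.4% of all genes, and its adjusted p was 0.068 when no filter on dim probes was used.

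*PAOX*, whose enzyme oxidizes acetylated polyamines, was higher with simvastatin in OVSAHO cells. Its level was 3.30 and 3.35 with simvastatin and 2.76 and 2.77 with L-778123. In KURAMOCHI cells, its level was 1.61 and 1.60 with simvastatin and 1.79 and 1.71 with L-778123. The groups did not overlap in either line, and the order of the drugs was opposite at this probe. With simvastatin the log2 fold change was 0.56 ± 0.06 (SE, limma adjusted p = 0.00077) in OVSAHO cells, while -0.14 ± 0.06 (SE, limma adjusted p = 0.11) in KURAMOCHI cells did not pass. The difference between the lines was 0.70 ± 0.08 (SE, limma adjusted p = 0.0037). The other 2 probes of *PAOX*, designed on other transcript records, gave 0.52 and 0.63 in OVSAHO cells, both past the threshold, and -0.11 and 0.24 in KURAMOCHI cells, neither past it. At these probes the difference between the lines was 0.63 (limma adjusted p = 0.067) and 0.39 (limma adjusted p = 0.16), so that this call rested on the brightest probe.

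**Figure D2:**
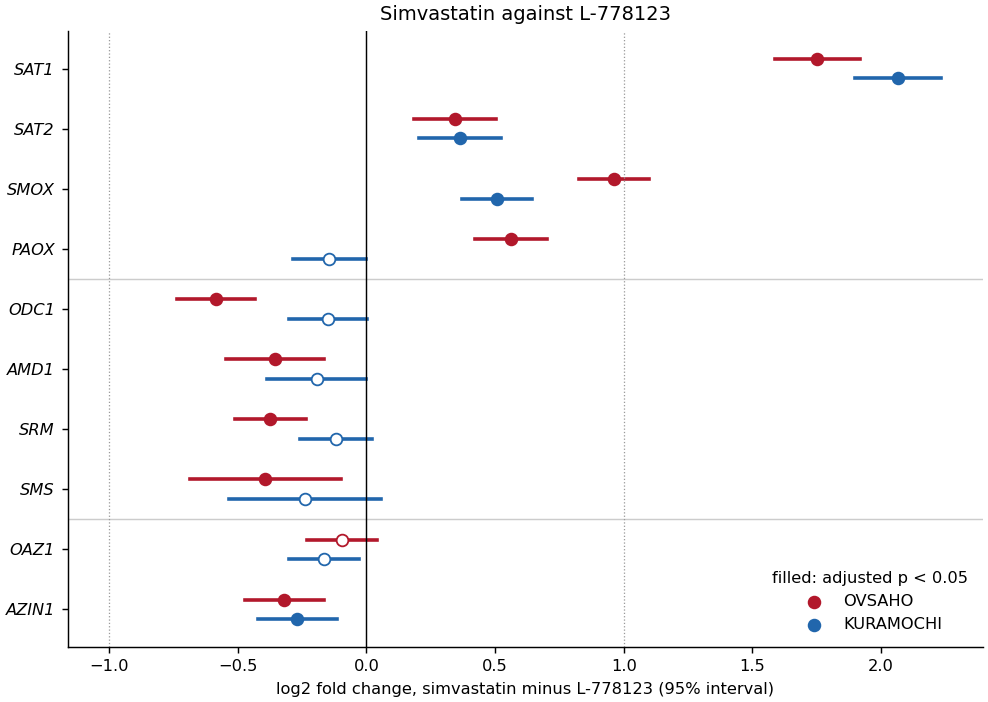
Log2 fold change of simvastatin minus L-778123 for the 10 genes in OVSAHO (red) and KURAMOCHI (blue) cells with 95% intervals from limma; filled points passed at an adjusted p under 0.05, and dotted lines mark a fold change of 2. *SAT1* lies at 1.75 and 2.07, beyond the dotted line in both lines, and the 4 synthesis genes *ODC1*, *AMD1*, *SRM* and *SMS* lie below 0, filled in OVSAHO cells alone.

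The 4 synthesis genes were lower with simvastatin in OVSAHO cells, with log2 fold changes of -0.59 to -0.35, and did not pass in KURAMOCHI cells, where all 4 values were also below 0, at -0.24 to -0.12. *ODC1*, the first enzyme of the pathway, had levels of 5.70 and 5.80 with simvastatin and 6.33 and 6.34 with L-778123 in OVSAHO cells. In KURAMOCHI cells, its level was 5.93 and 5.90 with simvastatin and 6.03 and 6.09 with L-778123. The groups were separate in both lines, by a wider gap in OVSAHO cells. The log2 fold change was -0.59 ± 0.06 (SE, limma adjusted p = 0.00087) in OVSAHO and -0.15 ± 0.06 (SE, limma adjusted p = 0.12) in KURAMOCHI cells, and the difference, -0.44 ± 0.09 (SE), passed in limma (adjusted p = 0.020). Leaving out 1 array ended the call of this difference for 6 of the 8 arrays, at adjusted p of 0.056 without OVSAHO simvastatin replicate 1, 0.054 and 0.051 without OVSAHO L-778123 replicates 1 and 2, 0.065 and 0.056 without KURAMOCHI simvastatin replicates 1 and 2, and 0.064 without KURAMOCHI L-778123 replicate 1. It was 0.087 with no filter on dim probes.

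*AMD1* had levels of 4.05 and 4.16 with simvastatin and 4.53 and 4.38 with L-778123 in OVSAHO cells, and of 4.68 and 4.65 against 4.90 and 4.82 in KURAMOCHI cells. Its log2 fold change was -0.35 ± 0.08 (SE, limma adjusted p = 0.013) in OVSAHO and -0.19 ± 0.08 (SE, limma adjusted p = 0.11) in KURAMOCHI cells, and a second probe gave -0.37 and -0.19 (limma adjusted p = 0.0072 and 0.082). The first of these calls ended without OVSAHO simvastatin replicate 1 (adjusted p = 0.064), without OVSAHO L-778123 replicate 1 (adjusted p = 0.054) and with the methods' analysis of variance (adjusted p = 0.077).

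*SRM*, the spermidine synthase gene, had levels of 3.82 and 3.78 with simvastatin and 4.14 and 4.21 with L-778123 in OVSAHO cells, and of 3.82 and 3.82 against 3.96 and 3.92 in KURAMOCHI cells. Its groups were separate in both lines. The log2 fold change was -0.37 ± 0.06 (SE, limma adjusted p = 0.0033) in OVSAHO and -0.12 ± 0.06 (SE, limma adjusted p = 0.17) in KURAMOCHI cells.

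*SMS*, the spermine synthase gene, had levels of 3.93 and 3.95 with simvastatin and 4.39 and 4.28 with L-778123 in OVSAHO cells, and of 3.66 and 3.64 against 4.06 and 3.72 in KURAMOCHI cells. The L-778123 arrays of KURAMOCHI cells lay farther apart than the arrays of any other group of the 10 genes. For *SMS* the log2 fold change was -0.39 ± 0.12 (SE, limma adjusted p = 0.039) in OVSAHO and -0.24 ± 0.12 (SE, limma adjusted p = 0.18) in KURAMOCHI cells. The call in OVSAHO cells was the least secure of the 10 genes. It ended without any 1 of the 4 OVSAHO arrays (adjusted p = 0.079 to 0.15) or of the 2 KURAMOCHI simvastatin arrays (adjusted p = 0.064 each), with no filter on dim probes (adjusted p = 0.094) and with the methods' analysis of variance (adjusted p = 0.24). Without KURAMOCHI L-778123 replicate 2, the value in KURAMOCHI cells was -0.41 and passed (limma adjusted p = 0.030).

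Of the antizyme pair, *AZIN1* was lower with simvastatin in both lines and *OAZ1* did not pass. *AZIN1* had levels of 4.05 and 4.08 with simvastatin and 4.44 and 4.33 with L-778123 in OVSAHO cells, and of 4.10 and 4.05 against 4.35 and 4.33 in KURAMOCHI cells. Its arrays separated by drug, and the lines lay at the same height. Its log2 fold change was -0.32 ± 0.06 (SE, limma adjusted p = 0.0084) in OVSAHO and -0.27 ± 0.06 (SE, limma adjusted p = 0.024) in KURAMOCHI cells. In KURAMOCHI cells this call ended without any 1 of the 4 KURAMOCHI arrays (adjusted p = 0.074 to 0.11), with no filter on dim probes (adjusted p = 0.10) and with the methods' analysis of variance (adjusted p = 0.079). *OAZ1*, the antizyme gene, had levels of 8.49 and 8.56 with simvastatin and 8.60 and 8.64 with L-778123 in OVSAHO cells, and of 8.51 and 8.50 against 8.68 and 8.66 in KURAMOCHI cells. Its log2 fold change was -0.10 (95% interval -0.23 to 0.04, limma adjusted p = 0.20) in OVSAHO and -0.17 (95% interval -0.30 to -0.03, limma adjusted p = 0.071) in KURAMOCHI cells, and with quantile normalization both passed, at -0.24 (adjusted p = 0.0099) and -0.21 (adjusted p = 0.027).

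Over both lines, 4 of the 10 genes passed in the same direction in each (*SAT1*, *SAT2* and *SMOX* higher, *AZIN1* lower), against 23.0% of all genes. The difference of the drug contrast between the lines passed for *SMOX*, *PAOX* and *ODC1*, 3 of 10 genes against 27.4% of all genes, which is close to the background. For *AMD1*, *SRM* and *SMS* the fold changes of -0.35, -0.37 and -0.39 in OVSAHO cells were not shown to differ from those in KURAMOCHI cells, since the differences were -0.16 (95% interval -0.43 to 0.11), -0.26 (95% interval -0.45 to -0.06) and -0.15 (95% interval -0.57 to 0.26), with limma adjusted p of 0.34, 0.072 and 0.55.

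**Figure D3:**
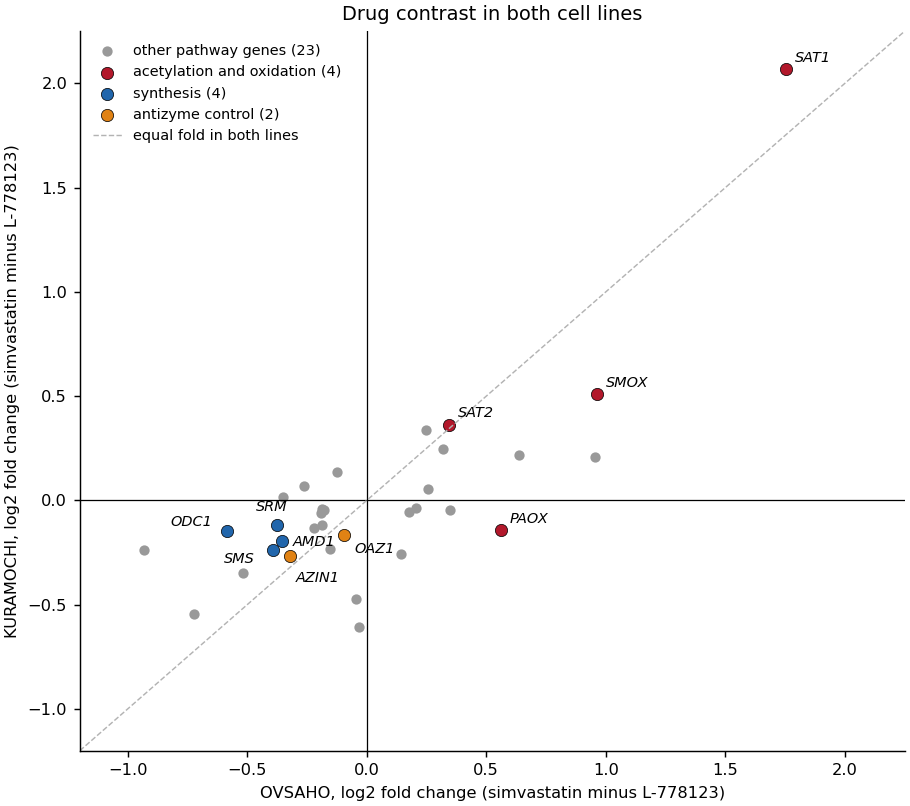
Log2 fold change of simvastatin minus L-778123 in OVSAHO (x axis) and KURAMOCHI (y axis) cells for the 10 genes, colored by role, and for 23 other pathway genes (gray); each point is 1 gene and the dashed line marks equal values. *SAT1* stands at 1.75 and 2.07, *PAOX* lies to the right at 0.56 with -0.14 in KURAMOCHI cells, and the synthesis genes lie left of 0 with values closer to 0 in KURAMOCHI cells.

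The lines also differed from each other under both drugs, most at *SMOX*. Averaged over drugs, OVSAHO exceeded KURAMOCHI cells at *SMOX* by 2.17 ± 0.04 (SE), at *SAT1* by 1.44 ± 0.05 and at *PAOX* by 1.37 ± 0.04 on the log2 scale, which are 4.49-fold, 2.72-fold and 2.58-fold, whereas *SAT2* was lower in OVSAHO cells, at -0.77 ± 0.05 (limma adjusted p at most 1.6e-05 for each). *AMD1* was lower in OVSAHO cells (-0.48 ± 0.05, limma adjusted p = 0.00033) and *SMS* was higher (0.37 ± 0.08, limma adjusted p = 0.0079). *SRM* was higher by 0.11 ± 0.04 at an adjusted p of 0.0499, a call that ended under 13 of 18 alternatives, among them, at 0.074 to 0.13, the removal of any 1 of the 8 arrays except OVSAHO L-778123 replicate 1. *ODC1*, *OAZ1* and *AZIN1* did not pass, at 0.06, -0.02 and 0.02. In all, 5 of 10 genes were higher and 2 were lower, against 42.4% and 40.5% of all genes, so the share that passed was not above the background. *ODC1* and *OAZ1* moved with the scaling, since under quantile normalization they were lower in OVSAHO cells and passed, at -0.15 and -0.34.

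Within a drug, the line difference of *SMOX* was 2.39 with simvastatin and 1.94 with L-778123, and that of *PAOX* 1.72 and 1.01. Both were higher in OVSAHO cells with either drug. Over all genes, 77.1% passed between the lines with simvastatin and 75.4% with L-778123. The difference of *ODC1* was -0.16 (limma adjusted p = 0.055) with simvastatin and 0.28 (limma adjusted p = 0.0083) with L-778123. *SRM* and *SMS* were higher in OVSAHO cells with L-778123, at 0.23 and 0.44, and were not past the threshold with simvastatin, at -0.02 and 0.29.

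**Figure D4:**
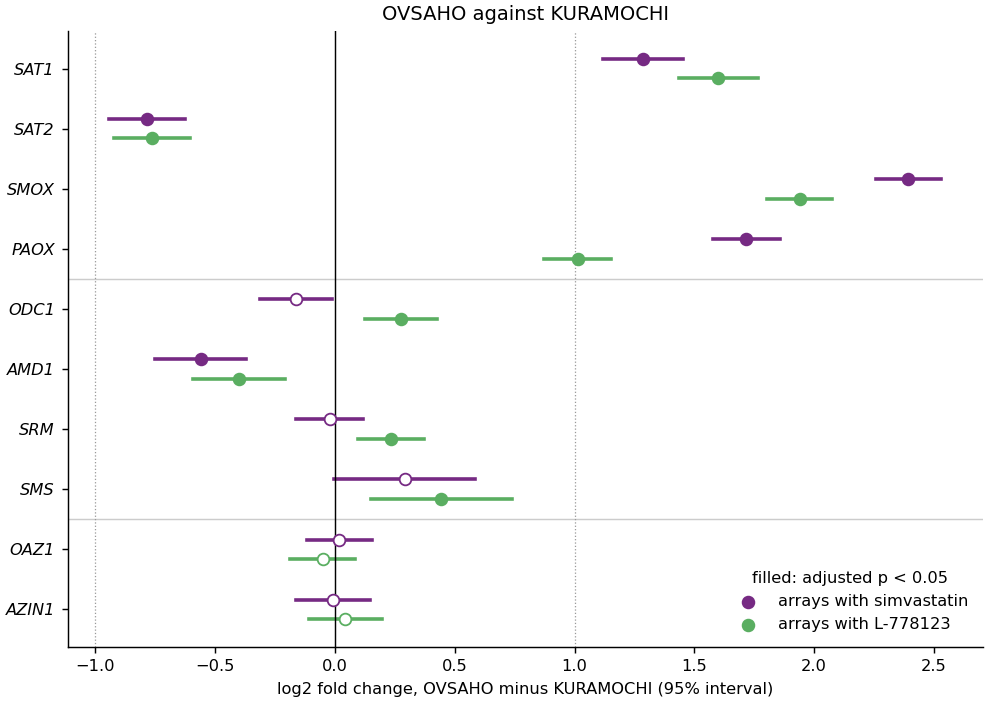
Log2 fold change of OVSAHO minus KURAMOCHI cells for the 10 genes, on the arrays with simvastatin (purple) and with L-778123 (green), with 95% intervals from limma; filled points passed at an adjusted p under 0.05, and dotted lines mark a fold change of 2. *SMOX* (2.39 and 1.94), *SAT1* and *PAOX* lie beyond the dotted line with both drugs, *SAT2* lies below 0 with both, and *ODC1* changes side of 0 (-0.16 and 0.28).

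The levels of *SAT1* ran from OVSAHO with simvastatin (mean 5.65) over KURAMOCHI with simvastatin (4.36) and OVSAHO with L-778123 (3.90) to KURAMOCHI with L-778123 (2.30), and each neighbour differed from the next (limma adjusted p at most 0.0012). *SAT2* ran from KURAMOCHI with simvastatin over KURAMOCHI with L-778123 and OVSAHO with simvastatin to OVSAHO with L-778123, and each step passed. For *SMOX*, both OVSAHO groups stood above both KURAMOCHI groups and each step passed, and for *PAOX* the lowest pair, the KURAMOCHI groups, did not differ beyond their spread (limma adjusted p = 0.11). Over the 10 genes, 16 of 30 steps between neighbouring groups passed. The 14 that did not were 1 step of *PAOX*, 2 of each of the synthesis genes and of *AZIN1*, and all 3 of *OAZ1*. Neighbours were set by the order of the same means, and the share of such steps over all genes was not counted. Fixed pairs of groups are another measure and give no background for this count. Between OVSAHO with simvastatin and KURAMOCHI with L-778123, 79.3% of all genes passed. The share was 76.9% between OVSAHO with L-778123 and KURAMOCHI with simvastatin.

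The genes whose profile over the 8 arrays was most like that of *SAT1*, by the distance between log2 signals centred on each gene's own mean, were *FUT3*, *FAXDC2*, *CD52*, *TSC22D3* and *KLHL30*, of 14476 genes compared. *FUT3*, which encodes a fucosyltransferase of Lewis antigens, was the nearest, at a distance of 0.436 and with log2 fold changes for the drugs of 1.46 in OVSAHO and 2.07 in KURAMOCHI cells. *FAXDC2* followed at 0.509 with 1.91 in both lines, and *CD52*, a surface glycoprotein gene of lymphocytes, at 0.567 with 2.18 and 1.86. *TSC22D3*, a glucocorticoid-induced leucine zipper gene, stood at 0.713 and *KLHL30* at 0.82.

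Of 26 other genes of the pathway, 25 had a named probe and 23 passed the filter. In OVSAHO cells 7 were higher and 6 were lower, against the 26.4% and 27.5% of all genes given above. In KURAMOCHI cells 1 was higher and 6 were lower, against 17.1% and 18.4%. The median log2 fold change of the 23 was -0.125 and -0.0457. None reached a fold change of at least 2 with the adjusted p in either line. By group, of 3 antizyme family genes 1 was higher and 1 was lower in OVSAHO cells and none passed in KURAMOCHI cells. Of 5 genes of ornithine supply, 1 was higher and 2 were lower in OVSAHO and 2 were lower in KURAMOCHI cells. Of 7 genes of methionine and methylthioadenosine, 2 were higher in OVSAHO, and 1 was higher and 2 were lower in KURAMOCHI cells. Of 4 genes of hypusination, the modification of eIF5A that uses spermidine, 1 was higher and 1 was lower in OVSAHO and 2 were lower in KURAMOCHI cells. Of 4 transport genes, 2 were higher and 2 were lower in OVSAHO and none passed in KURAMOCHI cells. The nearest to a fold change of 2, chosen after their values were seen, were *AGMAT* at 0.96, well above background on 7 of 8 arrays, and *SLC18B1*, a vesicular polyamine transporter gene, at -0.93, both in OVSAHO cells.

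Members higher and members lower with simvastatin in OVSAHO cells, and *OAZ1*, which did not pass, were also compared in the 250 bases before their transcription start. RefSeq windows on GRCh38.p14, a later build than the hg19 of the array design, were searched for 7 of the 10 genes (11 windows, since some genes have several starts). *SMOX*, *PAOX* and *AZIN1* were not among them, so that *SAT1* and *SAT2* alone stand for the acetylation and oxidation genes. Windows of a gene can overlap and share a box, as those of *AMD1* do. Printed are the windows of *SAT1* and *SAT2*, which were higher in both lines, and of *ODC1* and *SRM*, the synthesis genes with the smallest adjusted p in OVSAHO cells, 5′ to 3′ on the strand of the gene. Capitals mark CCAAT boxes (CCAAT), GC boxes (GGGCGG) and E-boxes (CACGTG), searched on both strands together with the TATA box (TATAAA), and no match overlapped one of another motif.
*SAT1*, chrX:23782923-23783172, + strand: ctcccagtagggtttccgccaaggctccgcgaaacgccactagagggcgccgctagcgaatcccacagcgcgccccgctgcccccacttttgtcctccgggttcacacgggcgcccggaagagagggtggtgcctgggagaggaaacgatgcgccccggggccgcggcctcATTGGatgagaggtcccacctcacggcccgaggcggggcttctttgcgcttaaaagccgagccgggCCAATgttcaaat
*SAT2*, chr17:7627877-7628126, - strand: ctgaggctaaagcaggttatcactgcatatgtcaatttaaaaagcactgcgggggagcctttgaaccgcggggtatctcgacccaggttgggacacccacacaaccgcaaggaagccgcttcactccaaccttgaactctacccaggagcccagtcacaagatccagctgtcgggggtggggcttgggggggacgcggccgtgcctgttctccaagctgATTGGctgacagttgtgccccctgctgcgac
*ODC1*, chr2:10448328-10448577, - strand: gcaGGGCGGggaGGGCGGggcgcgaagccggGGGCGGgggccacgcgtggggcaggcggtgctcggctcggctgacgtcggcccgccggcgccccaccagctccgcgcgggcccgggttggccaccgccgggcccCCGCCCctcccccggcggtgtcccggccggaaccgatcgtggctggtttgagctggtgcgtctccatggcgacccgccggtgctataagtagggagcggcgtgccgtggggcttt
*SRM*, chr1:11060019-11060268, - strand: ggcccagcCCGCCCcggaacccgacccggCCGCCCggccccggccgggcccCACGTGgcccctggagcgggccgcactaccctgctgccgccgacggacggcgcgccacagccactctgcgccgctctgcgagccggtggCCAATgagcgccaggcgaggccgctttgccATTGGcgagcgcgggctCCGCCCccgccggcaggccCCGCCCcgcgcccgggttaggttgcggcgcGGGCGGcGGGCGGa
The *SAT1* window held CCAAT boxes 79 and 13 bases before the start and that of *SAT2* held 1 at 31 bases, and neither held a GC box. CCAAT boxes did not separate the groups of genes, since *SRM* (110 and 80 bases before the start), *SMS* (170), a second window of *AMD1* (21) and *OAZ1* (149 and 109) held them too. Every window of *ODC1*, *AMD1*, *SRM* and *SMS* held at least 1 GC box, with 4 in that of *ODC1* and 6 in that of *SRM*, and *OAZ1* held 2. An E-box lay 199 bases before the start of *SRM*, and another lay 29 bases before a second start of *ODC1*. Among all 35116 promoter windows of this length, 42.6% held a GC box, 32% a CCAAT box, 10.7% a TATA box and 6.34% an E-box. The GC content of the printed windows was 66.4% for *SAT1*, 58.8% for *SAT2*, 78.8% for *ODC1* and 82% for *SRM*. The windows of *AMD1*, a synthesis gene, had 67.2% to 67.6%, close to *SAT1*. It was 72.8% for *SMS* and 75.2% for *OAZ1*, which did not pass in either line. Second windows had 62.8% for *SAT2* and 82.4% for *ODC1*. The GC content over all windows was not measured. These matches describe letters in the windows and were not related to binding of any factor.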

How the data were processed

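Total RNA of OVSAHO and KURAMOCHI cells with simvastatin or L-778123 was hybridized to Agilent one-color SurePrint G3 arrays, and groups followed the labels of the samples. The authors extracted the images with Agilent Feature Extraction 11.5.1.1 and deposited for each spot its processed signal, an intensity on a linear scale corrected for background within the array and not normalized between arrays, with flags and median intensities. They also deposited a table of intensity values for the same arrays. Its 75th percentile was 383 to 384 on all arrays and its sorted values nearly coincide, as after quantile normalization, although per the methods the 75th percentile was the reference. This table served as an alternative.

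Control spots and 58 to 99 outlier spots per array were left out, spots of a probe were averaged, and the log2 processed signal was set relative to the array's 75th percentile. A probe was tested if both arrays of some group held it well above background (33753 of 58162). Symbols came from RefSeq accessions in the files (31079 probes named). The 10 genes have 14 probes. Each gene took its brightest probe, and *SAT1*, *PAOX* and *AMD1* have others.

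All probes were fitted with limma 3.58.1 in R 4.3.3 (1 mean per group, spread shared by the 4 groups, Benjamini-Hochberg over all probes). The test was tried on simulated data. Alternatives were no filter and a strict one on dim probes, normexp (offset 50, on median intensity in place of the mean), quantile normalization, a 75th percentile taken over bright probes, the authors' table, each line fitted alone, a replicate block, Tukey's test after a two-way analysis of variance as in the methods, folds of at least 2 and 1.5, other probes, and each array left out. By rule, the genes named are the 10 members, other pathway genes with an adjusted p under 0.05 and a fold of at least 2 (there were none), and the 5 genes most like *SAT1*. Pathway genes and cell type markers named beside these were chosen after their values were seen. The members and lists were chosen with earlier results of these data known. The number of arrays limits the precision. Python 3.11.15 with matplotlib 3.10.9 drew the figures.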

Additional observations from a re-analysis of the deposited data

Results flagged for a closer look

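The difference of the drug contrast between the lines (OVSAHO minus KURAMOCHI, log2, tested as an interaction in limma) passed for 3 of the 10 polyamine metabolism genes. It was 0.70 for *PAOX* (adjusted p = 0.0037), 0.45 for *SMOX* (adjusted p = 0.013) and -0.44 for *ODC1* (adjusted p = 0.020). The count is close to the background of 27.4% of all genes. At the other probes of *PAOX* the difference did not pass (limma adjusted p = 0.067 and 0.16). With no filter on dim probes, *SMOX* and *ODC1* did not pass (limma adjusted p = 0.068 and 0.087).

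It also passed for 9 of 23 other pathway genes, against 27.4% of all genes. The value was above 0 for 6 of them, at 0.75 for *AGMAT*, 0.58 for *ARG2*, 0.43 for *ENOPH1*, 0.42 for *SLC3A2*, 0.40 for *EIF5A2* and 0.39 for *DHPS*. It was below 0 for 3, at -0.69 for *SLC18B1*, -0.37 for *ATP13A3* and -0.33 for *SLC7A1*. These genes were chosen after their values were seen. *AGMAT* was dim in OVSAHO cells with L-778123, at -4.66 and -4.96, and was well above background on 1 of these 2 arrays. A second probe of *SLC18B1* gave -0.25 (adjusted p = 0.44) and one of *ATP13A3* -0.33 (adjusted p = 0.064). Groups of 2 arrays are too small to test single arrays as outliers.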

How the results depend on the processing

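Of 740 values of single genes under the alternatives, 666 kept their direction and side of the threshold, 41 fell short of it, 18 newly passed and 15 changed sign. The 666 overstate the agreement, since some values could not differ or nearly repeated another alternative. Only *SAT1*, *PAOX* and *AMD1* have other probes, so the alternative of a second probe left the other genes unchanged. Leaving out an array of a line could not move the fold change in the other line, only its adjusted p. The authors' table nearly repeated quantile normalization. The drug contrasts of *SAT1*, *SMOX*, *PAOX*, *ODC1* and *SRM* kept their direction and side in both lines under all 19 alternatives. For *PAOX*, *ODC1* and *SRM* in KURAMOCHI cells, that side was short of the threshold. No scaling moved the median log2 fold change of all probes tested by more than 0.0774.

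The number of the 10 genes whose contrast differed between lines was 1 with no filter on dim probes and 5 with normexp, against 3. With a fold of at least 2, the counts were 1 in OVSAHO, 1 in KURAMOCHI, 0 for the difference and 3 between lines. With a fold of at least 1.5 they were 3, 1, 1 and 4, and both sets are by construction lower than 9, 4, 3 and 7. At a fold of at least 2, the shares of all genes were 11.6% in OVSAHO and 5.38% in KURAMOCHI cells. Shares for the other counts in these sets are not given here, so those counts have no background. Leaving out each array gave 7 to 9 genes in OVSAHO, 2 to 4 in KURAMOCHI (2 without KURAMOCHI simvastatin replicate 2), 2 to 3 for the difference, 6 to 7 between lines and 13 to 16 of the 30 steps. A lone array was assumed to vary like the other groups.

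Signs changed only at values that had not passed. Between lines, *OAZ1* was 0.0095 with normexp, *ODC1* was -0.148 with quantile normalization and -0.149 in the authors' table (both past the threshold), and *AZIN1* was -0.0228 and -0.0236. The difference of *OAZ1* was -0.0386 and -0.0427 in these. With each array left out, the difference ranged from -0.0651 to 0.0268 for *SAT2*, -0.328 to 0.0204 for *SMS* and -0.107 to 0.00394 for *AZIN1*, and the value between lines from -0.0349 to 0.00129 for *OAZ1* and -0.00962 to 0.0457 for *AZIN1*. The cause was not tested.

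The replicate numbers did not pair the arrays, with correlations of their deviations of 0.00085 to 0.056 over 6 pairs of groups. With the replicate block, the counts were 9, 4, 3 and 6, and *SRM* between lines was the 1 call that changed (adjusted p = 0.080).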
